A study of Mus musculus with 27 samples.

Results

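The expression of 10 genes that periportal hepatocytes are known for was followed in RNA-seq data from the livers of 27 female Balb/c mice in 8 groups. The genes were Cps1, Ass1, Asl and Arg1 of the urea cycle, Gls2, Hal and Sds of amino acid breakdown, Pck1 of gluconeogenesis, and Cyp2f2 and Hsd17b13. They were taken by name, through their Ensembl identifiers, from a table of raw counts for 55414 identifiers, of which 54749 had a gene symbol, and each name matched 1 row. All 10 passed the filter on low counts, which kept the 14114 genes whose counts averaged 10 or more over the libraries.

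The mice were 8 weeks old when the experiment began. The study asked what inhibition of hyaluronan synthase 2, encoded by Has2, does in fibrosis induced by carbon tetrachloride (CCl4), a solvent that hepatocytes turn into a toxic radical. Healthy mice received olive oil intraperitoneally in place of CCl4 and formed the groups control (4 mice, with PBS injected into the tail vein), 4MU (3 mice, 4-methylumbelliferone by gavage, a small molecule inhibitor of hyaluronan synthesis), siLuc-LNP (3 mice, a non-targeting siRNA against luciferase in lipid nanoparticles) and siHAS2-LNP (3 mice, siRNA against Has2 in the same particles). Fibrotic mice received CCl4 intraperitoneally and formed the groups CCl4 (2 mice), CCl4 + 4MU (4 mice), CCl4 + siLuc-LNP (4 mice) and CCl4 + siHAS2-LNP (4 mice). Injections were given 2 times a week over 2 weeks, and 4MU was given daily, starting before the first CCl4 injection. Whole liver was homogenised, so no value belongs to 1 cell type, and fewer hepatocytes of a zone and less RNA in each of them cannot be told apart.

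Hepatocytes along the liver lobule divide their work by their place in the blood flow. Cells around the portal vein receive oxygen-rich blood with amino acids from the gut. They hold most of the urea cycle, which turns ammonia into urea, break down histidine, serine and glutamine, and make glucose. Cells around the central vein hold glutamine synthetase, which takes up the ammonia that has escaped, and the cytochrome P450 enzymes that activate CCl4, so that CCl4 is known to kill the pericentral cells first.

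Libraries held between 7044386 and 29425937 counts, the lowest in CCl4 + siHAS2-LNP mouse 4. The libraries least like the others of their group were mouse 4 and mouse 3 of CCl4 + siLuc-LNP and mouse 1 of siLuc-LNP, with mean Spearman correlations across genes of 0.961, 0.967 and 0.968. Has2 itself was at 0 counts in 25 of the 27 libraries and reached 3 counts in the other two together, so these data cannot show whether it was knocked down. Hepatocyte genes common to all zones, such as albumin, summed to between 107348 and 238235 CPM (counts scaled to a fixed library total) over 9 genes, and both extremes were in fibrotic mice (CCl4 mouse 2 and a CCl4 + 4MU mouse). Levels are given as CPM after scaling of the libraries by the trimmed mean of M-values, and differences are log2 fold changes with their standard error (SE) from edgeR's quasi-likelihood test, adjusted by Benjamini-Hochberg over all genes tested, with a threshold of 0.05.

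The urea cycle genes lie apart in the genome (GRCm39 coordinates). Cps1 (ENSMUSG00000025991) is at chr1:67161988-67270418, Ass1 (ENSMUSG00000076441) at chr2:31352181-31410862, Asl (ENSMUSG00000025533) at chr5:130040099-130058088 and Arg1 (ENSMUSG00000019987) at chr10:24791118-24803817. Of the genes for amino acid breakdown, Gls2 (ENSMUSG00000044005) is at chr10:128030316-128045873, Hal (ENSMUSG00000020017) at chr10:93324629-93355166 and Sds (ENSMUSG00000029597) at chr5:120614585-120621997. Pck1 (ENSMUSG00000027513) is at chr2:172994744-173001066, Cyp2f2 (ENSMUSG00000052974) at chr7:26819322-26833090 and Hsd17b13 (ENSMUSG00000034528) at chr5:104103306-104125281. Asl, Arg1 and Hsd17b13 are on the minus strand and the others on the plus strand. Counts cover the exons of each gene.

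RefSeq promoters (GRCm38.p6) were found for 5 of the 10 genes, Ass1, Hal, Pck1, Cyp2f2 and Hsd17b13. The 200 bases before the start of Hal, Pck1 and Hsd17b13 are shown, because these genes passed the test for the mean CCl4 effect (Cps1 did too). Capitals mark the motifs found among 5 searched on both strands.
Hal (plus strand of chr10:93488568-93488767): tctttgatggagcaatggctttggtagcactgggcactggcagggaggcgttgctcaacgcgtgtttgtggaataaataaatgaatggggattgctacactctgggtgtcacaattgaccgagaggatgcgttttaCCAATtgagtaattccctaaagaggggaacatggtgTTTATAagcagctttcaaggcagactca
Pck1 (plus strand of chr2:173152873-173153072): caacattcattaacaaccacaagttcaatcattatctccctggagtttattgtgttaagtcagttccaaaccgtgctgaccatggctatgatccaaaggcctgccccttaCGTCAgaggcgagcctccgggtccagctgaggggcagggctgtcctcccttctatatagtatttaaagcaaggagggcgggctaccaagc
Hsd17b13 (minus strand of chr5:103977389-103977588): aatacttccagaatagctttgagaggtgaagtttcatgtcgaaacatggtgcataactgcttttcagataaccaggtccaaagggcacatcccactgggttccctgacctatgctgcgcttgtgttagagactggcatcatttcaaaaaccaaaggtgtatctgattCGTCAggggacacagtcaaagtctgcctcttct
In Pck1 and Hsd17b13 the capitals are TGACG, the core of a cAMP response element, read from the opposite strand and ending 86 and 29 bases before the start. The Pck1 promoter is known for its response to glucagon through cAMP. In Hal they are CCAAT and, from the opposite strand, TATAAA. Among 32851 promoters of the same length, TGACG was in 15.7%, CCAAT in 29.3% and TATAAA in 9.96%, so each of these words is common. The longer words TTGCGCAA (a site of C/EBP factors) and CAAAGTCCA (a site of HNF4) were in 0.134% and 0.317% of promoters and in none of the 5. Ass1 and Cyp2f2 held none of the 5 words in this window. A match is a description of the letters and no more.

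Per kilobase of exon, the control livers held most of Ass1, with a mean of 804 CPM per kb, then Arg1 with 504, Cps1 with 465 and Pck1 with 398 (n = 4). Hsd17b13 followed with 164 CPM per kb and Cyp2f2 with 108. Sds (83.2), Hal (75.3), Gls2 (63.3) and Asl (53.1) had the lowest mean levels on this scale, and these 4 lie close together. The length used was that of all annotated exons of a gene merged, 6662 bases for Asl, and the order depends on it. In CPM the control mean of Asl was 354, above Sds (155) and Gls2 (277). On both scales Asl, which acts between Ass1 and Arg1 in the cycle, was the least abundant of its 4 urea cycle genes. Together the 10 genes took between 0.759% and 1.62% of a library's counts.

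Levels of the 10 genes varied to very unequal degrees over the 27 mice. Arg1 was the steadiest, with a 1.89-fold range from 956 to 1810 CPM. Pck1 was the most variable, with an 18.6-fold range from 154 to 2860 CPM. Group means of Pck1 ran from 355 ± 339 CPM in CCl4 + siLuc-LNP to 2027 ± 599 CPM in CCl4 + 4MU (SD, n = 4 each), a 5.72-fold span. The CCl4 group had the lowest mean of the 8 groups for 6 of the 10 genes (Ass1, Asl, Arg1, Gls2, Hal and Sds), and CCl4 + 4MU the highest for 5 (Ass1, Asl, Gls2, Sds and Pck1).

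**Figure D1:**
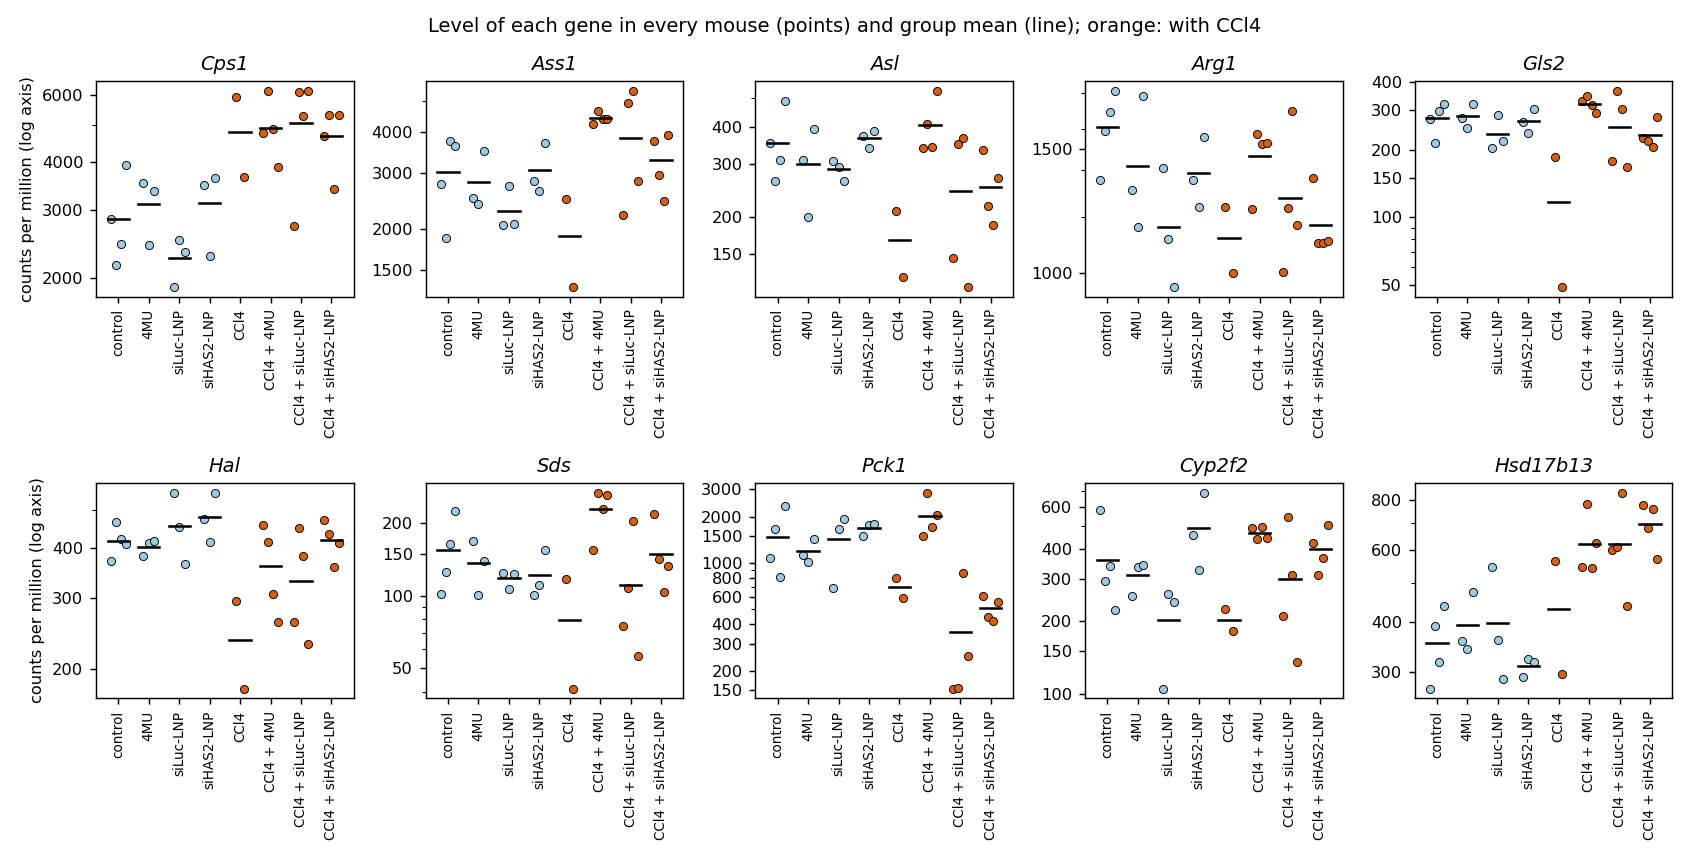
Level of each gene in every mouse (points) and group mean (lines), in CPM on a log axis, with healthy groups in blue and CCl4 groups in orange. Pck1 runs from 154 to 2860 CPM, and CCl4 mouse 2 is the lowest of all mice for Ass1, Gls2, Hal and Sds.

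Averaged over the 4 pairs of fibrotic and healthy groups with the same treatment, Cps1 and Hsd17b13 rose with CCl4 while Pck1 and Hal fell. Thus 4 of the 10 genes passed the test, 2 in each direction, while 51.9% of all genes tested passed it. The median log2 fold change of the 10 was -0.08, beside -0.02 over all genes tested. The 14 fibrotic and 13 healthy mice enter this mean effect.

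Cps1 encodes carbamoyl phosphate synthetase, which brings ammonia into the urea cycle in mitochondria. It ranged from 1897 to 3939 CPM in the healthy mice (median 2517) and from 2731 to 6148 CPM in the fibrotic mice (median 5092). In 10 of 14 fibrotic mice it was above every healthy mouse. The mean CCl4 effect was 0.79 (SE 0.14, edgeR adjusted p = 4.6e-05), and all 14 fibrotic mice were above the mean of their healthy counterparts. Of the separate pairs, the one with siLuc-LNP passed. There Cps1 was at 1897, 2517 and 2332 CPM in siLuc-LNP and at 2731, 6113, 5283 and 6143 CPM in CCl4 + siLuc-LNP. Mouse 1 of the latter was lowest, yet still above the 3 healthy mice, and the difference was 1.17 (SE 0.28, edgeR adjusted p = 0.0031). Differences in the other pairs were of the same sign and did not pass, at 0.75 in CCl4 against control (SE 0.30, adjusted p = 0.053), 0.66 with 4MU (SE 0.27, adjusted p = 0.078) and 0.57 with siHAS2-LNP (SE 0.27, adjusted p = 0.17).

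Ass1 encodes argininosuccinate synthetase, which joins citrulline and aspartate. Its mean CCl4 effect was 0.21 (SE 0.15, edgeR adjusted p = 0.23), but the fibrotic groups lay on both sides of the healthy ones. It was at 2763, 1883, 3750 and 3618 CPM in control and at 2478 and 1326 CPM in CCl4. CCl4 + 4MU held 4260, 4649, 4413 and 4403 CPM, a narrow range above all 13 healthy mice. CCl4 + siLuc-LNP held 2220, 4952, 5384 and 2826 CPM, with 2 mice above and 2 within the healthy range.

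Asl encodes argininosuccinate lyase, which releases arginine. In control it was at 352, 264, 311 and 487 CPM, and in CCl4 at 209 and 126 CPM. Both CCl4 mice were below all 4 controls, with a difference of -1.08 (SE 0.38, edgeR adjusted p = 0.031). The mean CCl4 effect was -0.36 (SE 0.17, adjusted p = 0.074). It missed the threshold, and CCl4 + 4MU, at 339, 408, 342 and 527 CPM, stood within and above the healthy range of 200 to 487 CPM.

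Arg1 encodes arginase, which splits arginine into urea and ornithine. It was at 1355, 1588, 1687 and 1810 CPM in control and at 1240 and 1000 CPM in CCl4. The CCl4 mice were lower without overlap, but the difference of -0.52 did not pass (SE 0.22, adjusted p = 0.065). The mean CCl4 effect of Arg1 was -0.15 (SE 0.10, adjusted p = 0.21), and with libraries scaled to the hepatocyte genes common to all zones both values turned to just above 0 (0.021 and 0.047).

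The other genes of the urea cycle and its transport gave 4 of 9 lower and none higher in the mean CCl4 effect. Otc, the ornithine transcarbamylase between Cps1 and Ass1, fell by 0.56 (SE 0.10, adjusted p = 7.3e-05). Slc25a15, the mitochondrial ornithine carrier, fell by 0.26, Aqp9, an aquaglyceroporin of hepatocytes, fell by 0.59, and Car5a, the mitochondrial carbonic anhydrase that supplies bicarbonate, fell by 0.67. The others had values of 0.08 (Nags, which makes the activator of Cps1), 0.01 (Slc25a13), 0.09 (Arg2), 0.11 (Glud1) and 0.16 (Slc7a2), and did not pass. Thus Cps1 and Otc, consecutive mitochondrial steps, moved in opposite directions under CCl4.

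Among the genes for amino acid breakdown, Hal was the one that changed in the mean CCl4 effect. Hal encodes histidine ammonia-lyase, the first step of histidine breakdown. It ranged from 366 to 551 CPM in healthy mice (median 418) and from 179 to 470 CPM in fibrotic mice (median 371). In 7 of 14 fibrotic mice it was below every healthy mouse, and the mean CCl4 effect was -0.41 (SE 0.11, edgeR adjusted p = 0.0043). In control it was at 372, 467, 422 and 411 CPM and in CCl4 at 295 and 179 CPM. That difference of -0.82, with no overlap, passed as well (SE 0.26, adjusted p = 0.017). The remaining pairs had the same sign and did not pass. Hal was at -0.46 with siLuc-LNP (SE 0.22, edgeR adjusted p = 0.13). With 4MU and siHAS2-LNP it was at -0.16 and -0.19 (SE 0.22 and adjusted p = 0.62 for each). When libraries were scaled to the hepatocyte genes common to all zones, the mean effect of Hal was -0.23 and missed the threshold (adjusted p = 0.054). That scaling moved the median over all genes from -0.02 to 0.19 and split its 6749 calls into 5223 higher, against 3711 of 7319.

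Gls2 encodes the liver glutaminase, which releases ammonia from glutamine for the urea cycle. Its levels were 274, 214, 298 and 321 CPM in control and 186 and 49.1 CPM in CCl4. Both CCl4 mice were below the controls, mouse 2 by far, and the difference was -1.24 (SE 0.35, edgeR adjusted p = 0.0084). The mean CCl4 effect of -0.29 did not pass (SE 0.15, adjusted p = 0.11), and CCl4 + 4MU, at 332, 347, 317 and 291 CPM, overlapped the top of the healthy range.

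Sds encodes serine dehydratase, which turns serine into pyruvate and ammonia. It was at 102, 126, 165 and 226 CPM in control, at 118 and 41.3 CPM in CCl4 and at 155, 269, 229 and 263 CPM in CCl4 + 4MU. CCl4 mouse 1 lay within the control range and mouse 2 below it, and the difference of -0.96 did not pass (SE 0.44, adjusted p = 0.09). The mean CCl4 effect was -0.01 (SE 0.19). Of 6 other genes of histidine, serine and glutamine breakdown, 1 rose, 2 fell and 3 did not pass. Sdsl, a relative of Sds, rose by 0.61 (SE 0.16), Amdhd1, a later step of histidine breakdown, fell by 0.67 (SE 0.12), and Got1, the cytosolic aspartate aminotransferase, fell by 0.57 (SE 0.14).

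Pck1, the cytosolic phosphoenolpyruvate carboxykinase that commits carbon to glucose, had the largest mean CCl4 effect of the 10 genes in absolute size. It ranged from 692 to 2342 CPM in healthy mice (median 1493) and from 154 to 2860 CPM in fibrotic mice (median 602). In 8 of 14 fibrotic mice it was below every healthy mouse, and in 1 CCl4 + 4MU mouse above them. The mean CCl4 effect was -1.01 (SE 0.24, edgeR adjusted p = 0.00095). In siLuc-LNP it was at 692, 1650 and 1927 CPM and in CCl4 + siLuc-LNP at 154, 155, 859 and 250 CPM. Mouse 3 of the latter overlapped the lowest siLuc-LNP mouse, and the difference was -2.01 (SE 0.45, adjusted p = 0.0021). In siHAS2-LNP it was at 1493, 1753 and 1791 CPM and in CCl4 + siHAS2-LNP at 609, 445, 422 and 556 CPM. These groups did not overlap, and the difference was -1.72 (SE 0.45, adjusted p = 0.012).

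With 4MU the sign of the Pck1 difference was the other one. Pck1 was at 1129, 1018 and 1430 CPM in 4MU and at 1487, 2860, 1722 and 2039 CPM in CCl4 + 4MU. All 4 fibrotic mice were above the 3 healthy ones, though the difference of 0.77 did not pass (SE 0.46, adjusted p = 0.23). In control it was at 1072, 1659, 817 and 2342 CPM and in CCl4 at 796 and 595 CPM, a difference of -1.08 that did not pass either (SE 0.54, adjusted p = 0.12).

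In the list of gluconeogenesis and its hormonal control, 6 of the 14 other tested genes fell in the mean CCl4 effect and 1 rose. G6pc1, the glucose-6-phosphatase that releases glucose, fell by 0.96 (SE 0.26), and Gcgr, the glucagon receptor, fell by 0.75 (SE 0.12). Pck2, the mitochondrial form of the Pck1 enzyme, rose by 2.34 (SE 0.12, edgeR adjusted p = 5.6e-14), the opposite sign to Pck1.

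Cyp2f2, a cytochrome P450 used as a periportal marker, had a mean CCl4 effect of 0.01 (SE 0.19). It was also among the genes that differed most between mice of 1 group. Healthy mice ran from 105.04 to 688 CPM and fibrotic mice from 135 to 541 CPM, so the fibrotic range lay inside the healthy one.

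Hsd17b13 encodes an enzyme of hepatocyte lipid droplets. It ranged from 274 to 545 CPM in healthy mice (median 342) and from 297 to 834 CPM in fibrotic mice (median 608). In 11 of 14 fibrotic mice it was above every healthy mouse, and the mean CCl4 effect was 0.69 (SE 0.12, edgeR adjusted p = 5.5e-05). It was at 292, 324 and 319 CPM in siHAS2-LNP and at 777, 683, 759 and 572 CPM in CCl4 + siHAS2-LNP. The groups were far apart, with a difference of 1.16 (SE 0.25, adjusted p = 0.0023). With 4MU it was at 358, 342 and 475 CPM without CCl4 and at 546, 781, 544 and 625 CPM with it. Those groups did not overlap and the difference was 0.67 (SE 0.24, adjusted p = 0.045). It missed the threshold without any 1 of 4 mice (adjusted p up to 0.16 without 4MU mouse 2). The remaining pairs did not pass. CCl4 against control gave 0.28 (SE 0.27, edgeR adjusted p = 0.43), with 565 and 297 CPM in CCl4 and 274 to 436 CPM in control. The siLuc-LNP pair gave 0.64 (SE 0.24, edgeR adjusted p = 0.054).

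Of the 7 other periportal genes that were tested, 4 fell and 1 rose in the mean CCl4 effect. Mfsd2a, a lipid transporter, fell by 2.29 (SE 0.32) and Igfals, which binds insulin-like growth factors in blood, fell by 1.01 (SE 0.15). Cdh1, the epithelial cadherin that bile duct cells also express, rose by 2.60 (SE 0.13).

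**Figure D2:**
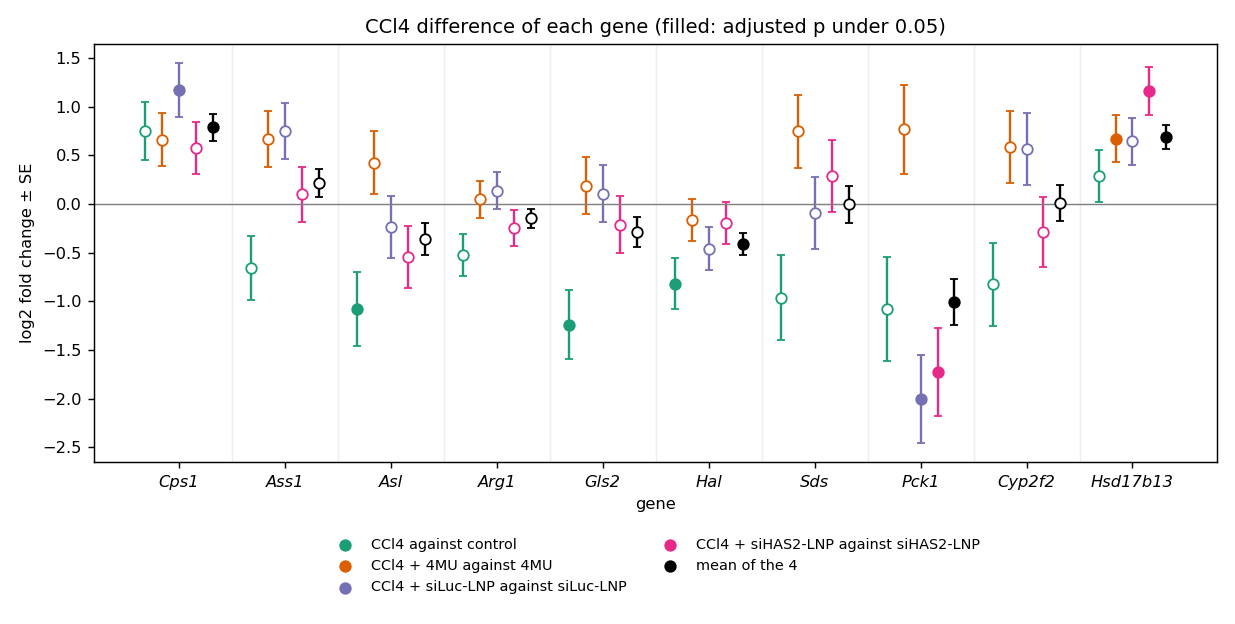
Log2 fold change of each gene with its SE for CCl4 against its absence under each of the 4 treatments and for their mean, with filled points past an adjusted p of 0.05. Cps1 is above 0 in all 4 pairs, while Pck1 runs from -2.01 with siLuc-LNP to 0.77 with 4MU.

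The 4 pairs were also counted one by one. CCl4 against control called 3 of the 10 genes, Asl, Gls2 and Hal, all lower, while 34% of all genes passed. With 4MU 1 of 10 passed (background 23.7%), with siLuc-LNP 2 of 10 (background 24.2%) and with siHAS2-LNP 2 of 10 (background 12.8%). These shares lie on both sides of the background, and nothing about the 10 genes is read from the counts. Of the 4 pairs, CCl4 against control had the lowest median over the 10 genes, -0.82, beside -0.02 over all genes.

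All 3 calls in CCl4 against control were lost without CCl4 mouse 2, as were many calls among all genes. That leaves a single CCl4 mouse, whose spread is assumed to equal that of the other groups. Over the 6 fits without 1 mouse, Asl lost its call in 2 and Gls2 and Hal in 1 each. Without CCl4 mouse 2 the share of all genes called fell from 34% to 15.3%. Asl was then at -0.74 (adjusted p = 0.33), Gls2 at -0.56 (adjusted p = 0.26) and Hal at -0.48 (adjusted p = 0.33), and the 1 gene called was Cps1, higher by 1.07 (adjusted p = 0.041). With libraries scaled to the common hepatocyte genes, which moved the median over all genes to 0.55, 44.9% of all genes passed and the 3 of the 10 called were Gls2 (-0.87, adjusted p = 0.02), Cps1 (1.24, adjusted p = 0.0022) and Hsd17b13 (0.76, adjusted p = 0.0042). CCl4 mouse 2 also had the lower sum of the common hepatocyte genes, 107348 against 178331 CPM in mouse 1. Its 3 proliferation markers summed to 434 against 201 CPM and its 7 stellate cell and myofibroblast markers to 803 against 519 CPM. The part of these in the result was not tested.

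The study's question for the treated fibrotic mice was how they differ from CCl4 alone. In CCl4 + 4MU against CCl4 all 10 genes had a positive log2 fold change and 4 passed, Ass1, Asl, Gls2 and Sds, while 18.3% of all genes passed. The differences were 1.22 for Ass1 (SE 0.34, edgeR adjusted p = 0.015), 1.27 for Asl (SE 0.38, adjusted p = 0.024), 1.46 for Gls2 (SE 0.35, adjusted p = 0.0073) and 1.53 for Sds (SE 0.45, adjusted p = 0.021). From the values above, no CCl4 + 4MU mouse overlapped the CCl4 mice for any of these 4 genes. They were picked by this same comparison, so the lack of overlap adds no support. How many of all genes were without overlap was not counted. Pck1, at 1.54 (SE 0.55, adjusted p = 0.051), and Cyp2f2, at 1.20 (SE 0.43, adjusted p = 0.055), came close to the threshold. Cps1, at 0.04 (SE 0.30), lay nearest to 0, and it and Arg1 (0.39) turned negative, to -0.47 and -0.16, with libraries scaled to the common hepatocyte genes. The median of the 10 was 1.21, beside 0.04 over all genes.

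Without CCl4 mouse 2 the share of all genes called fell from 18.3% to 1.25%. All 4 calls were among those lost, with differences of 0.81 for Ass1 (adjusted p = 0.29), 0.93 for Asl (adjusted p = 0.31), 0.76 for Gls2 (adjusted p = 0.21) and 0.93 for Sds (adjusted p = 0.35). That leaves a single CCl4 mouse, whose spread is assumed to equal that of the other groups. Other marker sums moved along in this comparison. The common hepatocyte genes summed to between 201661 and 238235 CPM in CCl4 + 4MU and to 107348 and 178331 CPM in CCl4. The 12 pericentral genes summed to between 4846 and 6310 CPM against 1700 and 2980 CPM, and the proliferation markers to between 29.5 and 141 CPM against 201 and 434 CPM. Their part in the differences of the 10 genes was not tested. With libraries scaled to the common hepatocyte genes, Ass1 at 0.74, Gls2 at 1.08 and Sds at 1.10 still passed and Asl at 0.78 did not (adjusted p = 0.058), while 37% of all genes passed and their median stood at -0.53.

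Among the other genes of the urea cycle and its transport, 3 of 9 were higher in CCl4 + 4MU than in CCl4 and 1 was lower. Otc was higher by 0.97 (SE 0.23, adjusted p = 0.0068), Nags by 0.67 (SE 0.20, adjusted p = 0.025) and Car5a by 1.42 (SE 0.47, adjusted p = 0.039). Glud1, the mitochondrial glutamate dehydrogenase, was lower, with a difference of -0.58 (SE 0.17, adjusted p = 0.019).

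The siRNA groups gave fewer calls against the same 2 CCl4 mice. CCl4 + siHAS2-LNP against CCl4 called 1 gene, Hal, while 14.4% of all genes passed. Hal was at 470, 434, 360 and 412 CPM with siHAS2-LNP, above both CCl4 mice, and higher by 0.82 (SE 0.26, edgeR adjusted p = 0.035). The call was lost without CCl4 mouse 2 (0.48, adjusted p = 0.48), where 0.765% of all genes passed. CCl4 + siLuc-LNP against CCl4 called 0 of 10 genes by edgeR (2 at an unadjusted p under 0.05 and 1 each by DESeq2 and limma-voom), while 0.248% of all genes passed by edgeR, 2.09% by DESeq2 and 1.24% by limma-voom. There Gls2 was at 1.12 (SE 0.35, adjusted p = 0.14) and Ass1 at 1.02 (SE 0.34, adjusted p = 0.16).

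The comparison that holds the particle constant is CCl4 + siHAS2-LNP against CCl4 + siLuc-LNP. It called 0 of the 10 genes by edgeR, DESeq2 and limma-voom, with none at an unadjusted p under 0.05, and 1.09% of all genes. Differences ran from -0.23 for Ass1 (SE 0.26) to 0.52 for Pck1 (SE 0.42). Between the inhibitor and the siRNA, CCl4 + 4MU against CCl4 + siHAS2-LNP called 1 gene, Pck1, and 1.22% of all genes. Pck1 was higher with 4MU by 2.00 (SE 0.43, edgeR adjusted p = 0.023), and the ranges of 1487 to 2860 CPM and 422 to 609 CPM were far apart. The call was lost without any 1 of 4 of these 8 mice, with adjusted p up to 0.12, while the difference stayed between 1.78 and 2.12.

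**Figure D3:**
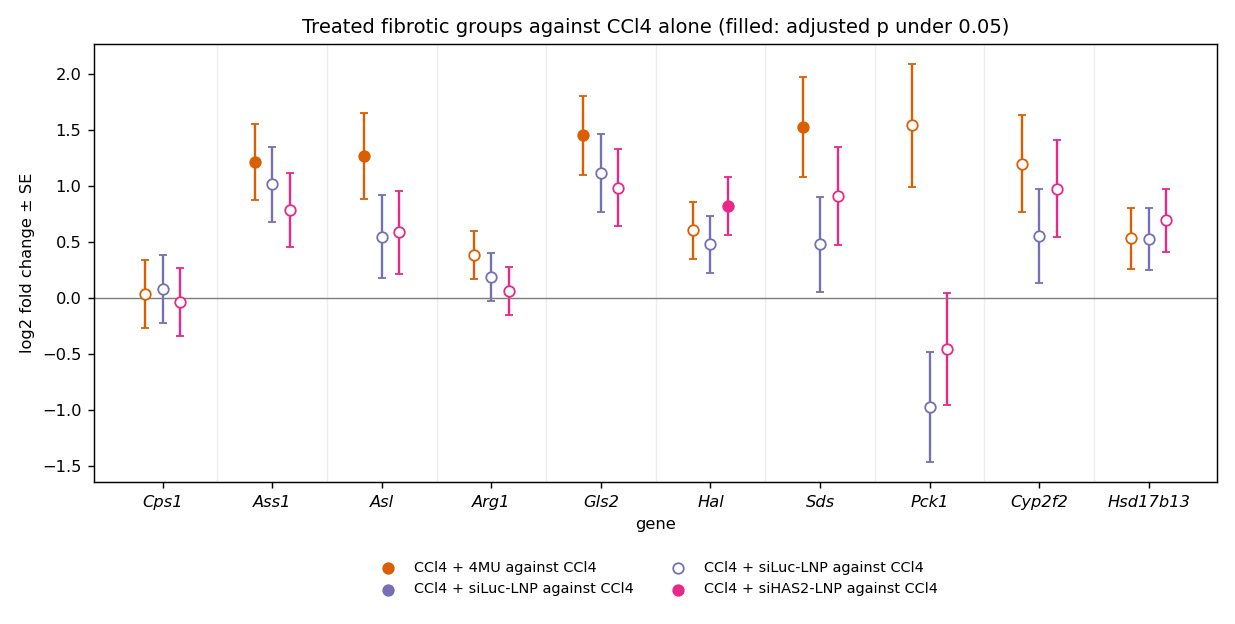
Log2 fold change of each gene with its SE for the 3 treated fibrotic groups against the same 2 CCl4 mice, with filled points past an adjusted p of 0.05. CCl4 + 4MU is above 0 for all 10 genes (with scaling to common hepatocyte genes, Cps1 and Arg1 are at -0.47 and -0.16), and Pck1 is below 0 in both siRNA groups (-0.97 and -0.45).

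In mice without CCl4 the treatments left the 10 genes without a call. In 4MU against control, edgeR called 0 of 10 (none at an unadjusted p under 0.05, and 0 by DESeq2 and limma-voom) and 0.00709% of all genes, with differences between -0.30 and 0.15. In siLuc-LNP against control edgeR called 0 of 10 (0 by the other tools) and 0.213% of all genes. At an unadjusted edgeR p under 0.05 were 2 of the 10, beside 960 of all genes. In siHAS2-LNP against siLuc-LNP edgeR called 0 of 10 (0 by the other tools) and 0.0425% of all genes. At an unadjusted edgeR p under 0.05 were 1262 of all genes and 1 of the 10. The last one was Cyp2f2, which was at 456, 328 and 688 CPM in siHAS2-LNP and at 105.04, 260 and 242 CPM in siLuc-LNP. These did not overlap, but the difference of 1.28 did not pass (SE 0.39, edgeR adjusted p = 0.28).

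Whether the CCl4 difference itself changed with treatment was tested by interaction terms. For 4MU, taken against the control pair, edgeR called 0 of 10 genes and 5.67% of all genes. Yet 6 of the 10 were under an unadjusted p of 0.05, and DESeq2 and limma-voom called 4 each, with 10.5% and 7.94% of all genes. In edgeR, 4 were called without CCl4 mouse 1 and 0 without mouse 2, where 8.47% and 0.142% of all genes passed. Gls2 came nearest, at 1.43 (SE 0.45, adjusted p = 0.058), followed by Asl at 1.50 (SE 0.50, adjusted p = 0.066), Ass1 at 1.32 (SE 0.44, adjusted p = 0.066) and Sds at 1.71 (SE 0.57, adjusted p = 0.071). For siHAS2-LNP, taken against the siLuc-LNP pair, 0 of 10 genes passed (none at an unadjusted p under 0.05, and 0 by the other tools), and 0.0354% of all genes.

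Because the Pck1 differences pointed in opposite directions, the 4MU pair was also set against the siRNA pairs, a contrast added after the values were seen. Against the siHAS2-LNP pair the CCl4 difference of Pck1 was higher with 4MU by 2.49 (SE 0.65, edgeR adjusted p = 0.044), the 1 call among the 10 genes, and 1.82% of all genes passed. Against the siLuc-LNP pair it was higher by 2.77 (SE 0.65, edgeR adjusted p = 0.085), and 0 of 10 genes were called, beside 0.0496% of all genes. These contrasts share the 4MU mice and were not refitted without single mice. Their adjusted p-values do not account for the choice of contrast from the Pck1 values.

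Ratios of counts within a mouse do not depend on how libraries are scaled. The Cps1 count per Arg1 count was between 1.35 and 2.69 in the 13 healthy mice (median 2.11) and between 2.54 and 5.26 in the 14 fibrotic mice (median 3.77). Thus 13 of the 14 fibrotic mice were above the healthy range. The Pck1 count per Arg1 count was between 1.13 and 1.82 in CCl4 + 4MU, 0.595 and 0.642 in the CCl4 mice, between 0.382 and 0.501 in CCl4 + siHAS2-LNP and between 0.126 and 0.507 in CCl4 + siLuc-LNP. The CCl4 + 4MU mice were above the other fibrotic mice without overlap. Cps1 per Ass1 was between 0.655 and 1.41 in healthy mice, at 2.39 and 2.77 in the 2 CCl4 mice and between 0.883 and 1.32 in CCl4 + 4MU. Hsd17b13 per Cyp2f2 overlapped, between 0.463 and 5.19 in healthy and between 1.10 and 3.25 in fibrotic mice. The ratios were chosen with earlier results known, and other gene pairs were not counted.

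**Figure D4:**
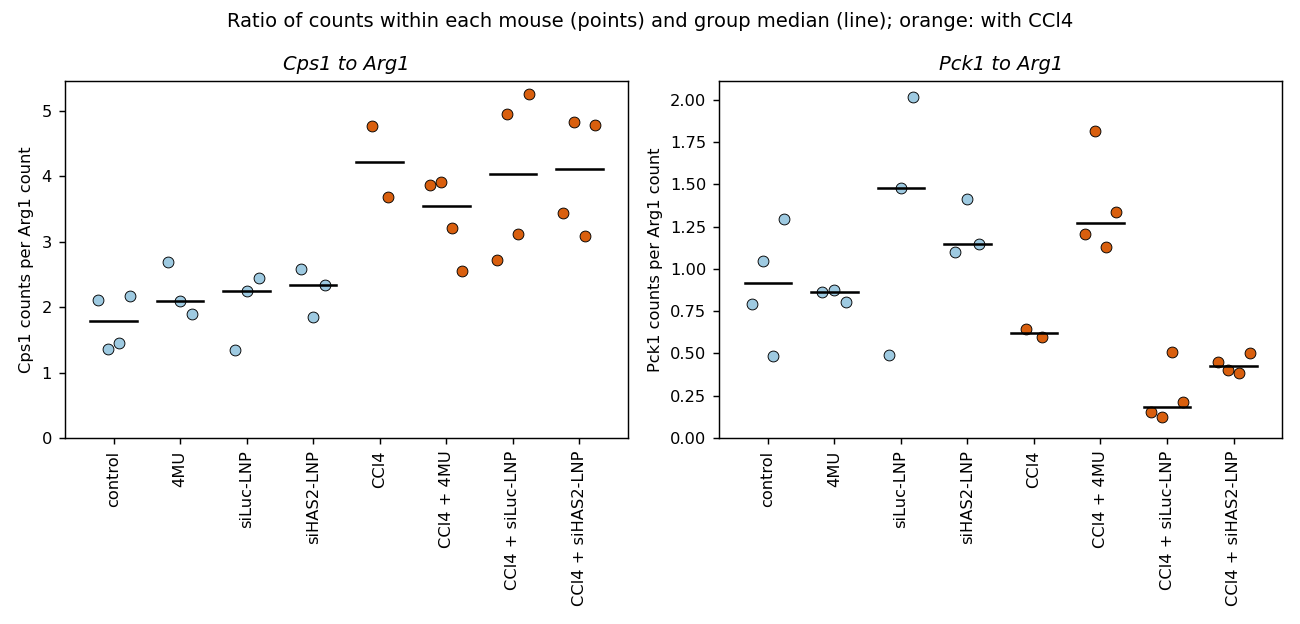
Counts of Cps1 (left) and Pck1 (right) per count of Arg1 in every mouse (points) with the group median (lines), on linear axes from 0. Cps1 per Arg1 has a median of 2.11 in healthy and 3.77 in fibrotic mice, and Pck1 per Arg1 is highest among fibrotic mice in CCl4 + 4MU (1.13 to 1.82).

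Other gene lists were set beside the 10 genes, whose mean CCl4 effects lay between -1.01 and 0.79, and the difference between lists was not tested. Of 12 pericentral genes, 11 fell in the mean CCl4 effect, with a median of -1.20. Glul, the glutamine synthetase of the cells at the central vein, fell by 3.96 (SE 0.13), and Oat, the ornithine aminotransferase of the same cells, fell by 4.04 (SE 0.14). Slc1a2, a glutamate transporter, had at most 20 counts in any fibrotic mouse and at least 1491 in every healthy one, and its fitted value of -9.20 (SE 0.24) rests on those few counts. The sum of the pericentral genes was between 10750 and 14714 CPM in healthy mice and between 1700 and 6310 CPM in fibrotic mice, with no overlap. Of 9 hepatocyte genes common to all zones, 4 fell and 2 rose, with a median of -0.15 and with Apoh (-0.81), Apoc3 (-0.50) and Trf (0.39) the furthest from 0.

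Markers of bile duct cells, of stellate cells and of proliferation mostly rose with CCl4, while those of macrophages and endothelial cells went both ways. All 5 cholangiocyte markers rose (Spp1 by 2.43, Krt19 by 1.99, Krt7 by 1.58; Krt19 had 2602 counts in CCl4 + 4MU mouse 4 and at most 163 in the other fibrotic mice), and their sum went from between 29.5 and 77 CPM to between 109 and 692 CPM. Of 7 stellate cell and myofibroblast markers 5 rose (Col1a1 by 4.06, Acta2 by 2.67, Col3a1 by 2.53) and 1 fell, with sums of 179 to 368 and 271 to 938 CPM. Of 8 macrophage markers 3 rose and 3 fell (Trem2 4.02, Timd4 -1.42, Cd68 1.41), with sums of 155 to 456 CPM (median 332) in healthy and 137 to 414 CPM (median 226) in fibrotic mice. Of 5 endothelial markers 3 rose and 1 fell (Lyve1 1.08, Kdr 0.59, Stab2 -0.59), with sums of 47.3 to 123 CPM (median 82.2) and 54.9 to 121 CPM (median 83.8). All 3 proliferation markers rose (Ccnb1 5.62, Mki67 4.26, Top2a 4.23), with sums of 1.13 to 20.9 and 29.5 to 434 CPM. The part of these shifts in the values of the 10 genes was not tested.

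**Figure D5:**
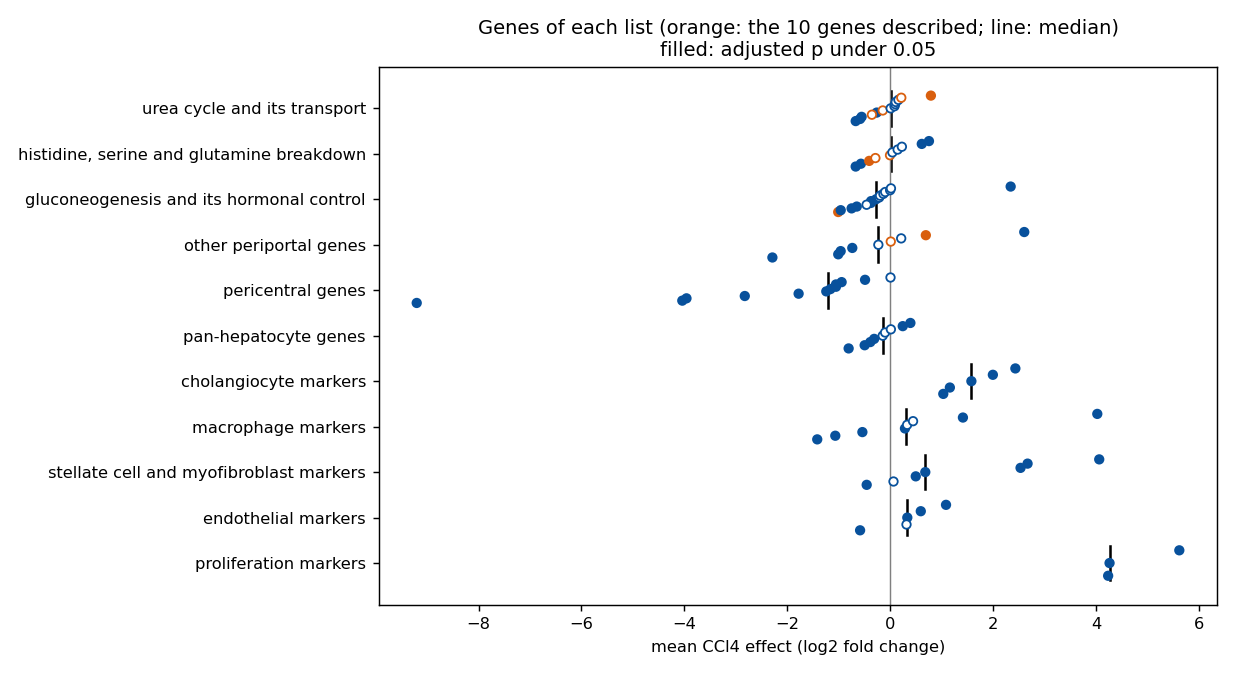
Mean CCl4 effect (log2 fold change) of every tested gene of 11 lists, with the 10 genes described in orange, filled points past an adjusted p of 0.05 and the median of each list as a line. Pericentral genes have a median of -1.20, while the orange points lie between -1.01 and 0.79.

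Within groups the 10 genes tended to vary together. After the group means were taken away, 20 of their 45 pairs had a Pearson correlation of log2 CPM above 0.5 over the 27 libraries, with a median of 0.47. The closest pair was Ass1 and Gls2 at 0.83, followed by Ass1 and Asl at 0.80 and Asl and Sds at 0.80. The 2 negative pairs were Cyp2f2 with Hsd17b13 (-0.15) and with Arg1 (-0.04), and Hal with Pck1 was at 0.06. Pairs of other genes were not counted, so this is not read as particular to the 10. In a search outside the 10, Mat1a reached 0.95 with Asl, above any pair of the 10. These are descriptions over libraries that share their scaling, and no test was made.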

How the data were processed

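The deposited values were raw counts of read pairs per gene, made by the authors from poly(A) RNA of whole liver (directional library kit, paired ends). Per the study's methods and processing notes, reads were trimmed with Trimmomatic 0.39, aligned to GRCm39 (Ensembl 105) with HISAT2 (version not given in the sources used here) and counted with featureCounts, leaving out multi-mapping reads. The strand setting is not stated, so antisense reads cannot be told apart, and the labels name no batch. The authors used DESeq2.

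Symbols and positions came from GENCODE vM39 (GRCm39). The 10 genes, gene lists and tests were chosen with earlier results of these data known. Named were all 10 genes, every urea cycle gene, at most 3 past the threshold per other list, and for each of the 10 the 2 genes most like it within groups. Counts over a mean of 10 were fitted in edgeR 4.0.16 (glmQLFit and glmQLFTest, R 4.3.3), with 8 group means over all 27 libraries, so 19 residual degrees of freedom, and Benjamini-Hochberg adjustment over 14114 genes. One gene of the amino acid breakdown list is not reported here and is left out of that list's count. Replicates are separate mice. Levels are CPM scaled by TMM, and a pseudocount of 0.5 CPM was added for log2 levels and correlations. Promoters were searched for motifs in Python 3.11.15. Alternatives were DESeq2 1.42.0, limma-voom 3.58.1 with sample weights, DESeq2 size factors, no low-count filter, a log2 fold change of at least 1, the replicate number as a block, the compared groups alone and leaving out each mouse. Scaling to 9 common hepatocyte genes, leaving out 3 libraries together and 2 contrasts between pairs were added after seeing the data. The edgeR step was tested on simulated data over 14114 genes. Same-numbered mice of different groups had a median correlation of -0.02 over 83 pairs of libraries, 18 above 0.1. Pairs with other numbers had a median of -0.01 over 234, with 66 above 0.1. The numbers were therefore not used to pair samples, though this check cannot exclude a shared batch.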

Additional observations from a re-analysis of the deposited data

Results flagged for a closer look

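In 3 of 40 sets of 4 mice (10 genes in 4 groups), 1 mouse stood outside the limit of Dixon's test, where chance gives about 1 in 20. Arg1 in CCl4 + 4MU had 1 mouse at 1232 CPM below the other 3 (1524 to 1574 CPM). Arg1 in CCl4 + siHAS2-LNP had 1 mouse at 1361 CPM above the other 3 (1103 to 1111 CPM). Pck1 in CCl4 + siLuc-LNP had mouse 3 at 859 CPM above the other 3 (154 to 250 CPM). Without that mouse the difference of Pck1 from siLuc-LNP was -2.91.

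Each of the genes described was compared between every pair of treatments. In 9 cases every fibrotic mouse lay on one side of its healthy group's mean under one treatment and on the other side under another. Of these 9, 6 rest on the 2 CCl4 mice, which fall on one side more easily than a larger group. How often other genes show this pattern was not counted, so it is not read as particular to the genes described. Against 4MU, the mean log2 difference under CCl4 alone was lower by a gap of -1.36 for Ass1, -1.54 for Asl, -1.71 for Gls2, -1.82 for Sds, -1.72 for Pck1 and -1.33 for Cyp2f2. The interaction of 4MU and CCl4 did not pass in edgeR for any of these 6 (adjusted p from 0.058 to 0.12), and there are only 2 CCl4 mice. For 4MU against siLuc-LNP the gap of Pck1 was 3.01, and the fitted difference did not pass (adjusted p = 0.085). For 4MU against siHAS2-LNP the gap was 2.47 for Pck1, where the fitted difference passed (adjusted p = 0.044), and 1.03 for Asl, where it did not (adjusted p = 0.28). These contrasts between pairs were chosen after the Pck1 values were seen. Their adjusted edgeR p-values do not account for that choice and add no support for Pck1.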

How the results depend on the processing

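Cps1, Pck1 and Hsd17b13 kept their direction and call in the mean CCl4 effect under 34 alternatives, among which the limit on the log2 fold change is not counted. With a log2 fold change of at least 1 also required, Pck1 alone was still called. Hal lost its call with libraries scaled to the common hepatocyte genes (-0.23) and kept it under the other 33. The share of all genes called moved with the settings too, so no move in the counts below is read as particular to the genes described. Without any 1 mouse it ran from 15.1% to 22.4% in CCl4 + 4MU against 4MU (23.7% with all mice). It ran from 16.9% to 26.2% in the siLuc-LNP pair (24.2%). In CCl4 + siHAS2-LNP it ran from 0.0921% to 2.76% against CCl4 + 4MU (1.22%) and from 0.0283% to 1.63% against CCl4 + siLuc-LNP (1.09%). No range is given where 1 CCl4 mouse would remain.

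The number of the 10 genes called moved by over 1.5 times in these cases, with causes not tested beyond what each setting removes. That fold-change limit left 1 call of 4 in the mean CCl4 effect. It left 0 of 1 in CCl4 + 4MU against 4MU and in CCl4 + siHAS2-LNP against CCl4. All-gene calls under it were not counted. DESeq2 gave 5 in place of 3 in CCl4 against control, 2 in place of 1 in CCl4 + 4MU against 4MU, 4 in place of 2 in CCl4 + siLuc-LNP against siLuc-LNP, 1 in place of 0 in CCl4 + siLuc-LNP against CCl4, 2 in place of 1 in CCl4 + siHAS2-LNP against CCl4, and 4 in place of 0 in the 4MU interaction. DESeq2's 6 calls in CCl4 + 4MU against CCl4 (21.4% of all genes) stand beside edgeR's 4 (18.3%). In the comparisons before it, in order, DESeq2 called 36%, 25.9%, 26.4%, 2.09%, 17.8% and 10.5% of all genes. For edgeR these were 34%, 23.7%, 24.2%, 0.248%, 14.4% and 5.67%. Limma-voom gave 3 calls in CCl4 + 4MU against 4MU, beside 34% of all genes, and 1 in CCl4 + siLuc-LNP against CCl4 (1.24%). It gave 2 in CCl4 + siHAS2-LNP against CCl4 (9.37%) and 4 in the 4MU interaction (7.94%). Without the low-count filter, CCl4 against control had 5, CCl4 + 4MU against 4MU 2 and CCl4 + siLuc-LNP against CCl4 1. CCl4 + siHAS2-LNP against CCl4 then had 4, healthy siHAS2-LNP against siLuc-LNP 1 and the 4MU interaction 6. Of the 55414 genes then tested, 7.34%, 5.27%, 0.576%, 3.11%, 0.217% and 1.96% passed, in the same order. With the compared groups alone, CCl4 + 4MU against 4MU had 6 (24.5% of all genes). The siLuc-LNP pair had 1 (10.7%) and the 4MU interaction 3 (9.27%).

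The alternatives added after seeing the data moved counts too. Scaled to the common hepatocyte genes, CCl4 + siLuc-LNP against siLuc-LNP had 4, CCl4 + siLuc-LNP against CCl4 1 and CCl4 + siHAS2-LNP against CCl4 0, and the split of all calls changed, with 5699 of 6337 higher in CCl4 against control (2537 of 4805 before) 243 of 5217 in CCl4 + 4MU against CCl4 (1168 of 2580), 322 of 3524 in CCl4 + siHAS2-LNP against CCl4 (1003 of 2038), 1972 of 2644 in the siLuc-LNP pair (1841 of 3418), 917 of 1202 in the siHAS2-LNP pair (1093 of 1812) and 96 of 3233 in the 4MU interaction (384 of 800). Without siLuc-LNP mouse 1, CCl4 + siLuc-LNP mouse 4 and CCl4 + siHAS2-LNP mouse 4 together, 2 were called in CCl4 + siLuc-LNP against CCl4. There 8.37% of all genes passed. In the same fit CCl4 + siHAS2-LNP against CCl4 had 2 (16.2%), the 4MU interaction 4 (12.4%) and CCl4 + 4MU against CCl4 6 (23.9%).

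Signs turned for some values, not all of them near 0. With all mice and TMM scaling, Arg1 was at -0.52 in CCl4 against control and at 0.39 in CCl4 + 4MU against CCl4. Hsd17b13 was at 0.28 in CCl4 against control. Scaled to the common hepatocyte genes, Arg1 was at 0.047 in the mean CCl4 effect, 0.021 in CCl4 against control and -0.16 in CCl4 + 4MU against CCl4, where Cps1 was at -0.47, and Sds was at 0.12 in the mean CCl4 effect. Without those 3 libraries Sds was at 0.079 and Cyp2f2 at -0.034 there, and limma-voom gave Cyp2f2 -0.024. Leaving out 1 mouse at a time gave -0.23 to 0.14 for Sds and -0.093 to 0.093 for Cyp2f2 in the mean CCl4 effect, -0.24 to 0.70 for Hsd17b13 in CCl4 against control and -0.29 to 0.41 for Cps1 in CCl4 + 4MU against CCl4.

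Leaving out 1 mouse at a time, calls ran from 4 to 6 in the mean CCl4 effect, 1 to 5 in CCl4 against control, 0 to 1 in CCl4 + 4MU against 4MU, 2 to 4 in CCl4 + siLuc-LNP against siLuc-LNP, 0 to 6 in CCl4 + 4MU against CCl4, 0 to 2 in CCl4 + siLuc-LNP against CCl4, 0 to 5 in CCl4 + siHAS2-LNP against CCl4, 0 to 1 in CCl4 + siHAS2-LNP against CCl4 + siLuc-LNP, 0 to 1 in CCl4 + 4MU against CCl4 + siHAS2-LNP and 0 to 4 in the 4MU interaction.

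The replicate block was tried though the numbers showed no sign of pairing samples. It gave 0 calls in place of 1 in CCl4 + 4MU against 4MU (Hsd17b13, edgeR adjusted p = 0.057). In CCl4 against control it gave 2 in place of 3 (Asl, adjusted p = 0.061). With the block 20.4% of all genes passed in the former and 32% in the latter, against 23.7% and 34%. With the block Sds was at 0.015 in the mean CCl4 effect and Cps1 at -0.011 in CCl4 + 4MU against CCl4. With 2 CCl4 mice, comparisons with that group have little precision, and the lowest library held 7044386 counts.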

Other observations

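For each of the 10 genes, the most similar genes within groups were sought after group means were taken away, over 27 libraries and 12830 genes. Asl ran with Mat1a, the methionine adenosyltransferase of liver (Pearson r = 0.95), and with Selenbp1 (r = 0.90). Gls2 ran with Hgd, an enzyme of tyrosine breakdown (r = 0.93), and with Aldh1l1 (r = 0.91). Sds ran with Asrgl1 (r = 0.89) and Idh2 (r = 0.87), and Hal with Hsd11b1 and Pecr (r = 0.86 each). Ass1 ran with Atp5f1b and Atp5f1a, subunits of the mitochondrial ATP synthase (r = 0.89 each).

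Cps1 ran with Aass, the first enzyme of lysine breakdown (r = 0.86), and Gpat4 (r = 0.84). Arg1 ran with Sdsl (r = 0.84) and Gsta4 (r = 0.79), Hsd17b13 with Sephs2 and Tmem38b (r = 0.88 each), and Cyp2f2 with Tada3 (r = 0.88) and Nrbp1 (r = 0.87). Pck1 had the weakest partners, Cbfa2t2 (r = 0.79) and Acox2 (r = 0.78). These are the highest values of a search, over libraries that share scaling and depth, and carry no test.

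Summed over the 10 genes and divided by the control mean, the level was 1.41 ± 0.16 in CCl4 + 4MU (SD, n = 4) and 0.898 ± 0.30 in CCl4 (n = 2). Divided by the common hepatocyte genes, the ratios were 1.38 ± 0.10 and 1.37 ± 0.031, beside 1.37 ± 0.35 in CCl4 + siLuc-LNP and 1.33 ± 0.15 in CCl4 + siHAS2-LNP (n = 4 each). The most abundant genes weigh most in this sum. With libraries scaled to the common hepatocyte genes, Ass1 (0.74), Gls2 (1.08) and Sds (1.10) passed between CCl4 + 4MU and CCl4, and Asl did not. That scaling also moved the median over all genes below 0, as given above. With TMM scaling and without CCl4 mouse 2, the differences were 0.81 for Ass1, 0.76 for Gls2 and 0.93 for Sds. The part of hepatocyte content in these values was not tested.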
